A study of Sus scrofa with 12 samples.

Results

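The endoderm lineage genes examined here were 9 genes chosen by symbol: the transcription factors SOX17, FOXA1, FOXA2, GATA4, GATA6 and HNF4A, and the secreted proteins AFP, TTR and APOA1. Of these, 6 were found by symbol among the 19681 Ensembl pig genes of the files: FOXA1, GATA4, GATA6, HNF4A, TTR and APOA1. The identifiers that the name table gives for FOXA2 and AFP were not among the rows used, and SOX17 had no identifier in that table, so these 3 genes are not analysed here. The question was whether cultures directed towards endothelium also carried transcripts of endoderm.

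Endoderm is the germ layer that gives rise to liver, pancreas, lung and gut, and an extraembryonic form of it lines the yolk sac. It shares a precursor with mesoderm, the mesendoderm, and WNT and nodal signals drive cells into that precursor state. GATA6 and GATA4 are zinc finger factors of early endoderm that heart mesoderm also uses. FOXA1 and FOXA2 are forkhead factors that open chromatin at gut and liver genes, and HNF4A is the nuclear receptor that governs hepatocyte genes. SOX17 marks definitive endoderm and is also made by arterial endothelium. AFP, TTR and APOA1 are secreted by fetal liver and yolk sac endoderm, AFP as the fetal counterpart of albumin, TTR as a carrier of thyroxine and APOA1 as the main protein of high-density lipoprotein.

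Expression was measured in 12 libraries, 3 biological replicates (A, B and C) of each of 4 groups. IEC2 were porcine iPS cells after 2 days with the GSK3 inhibitor CHIR99021, FGF2 and LIF having been withdrawn. IEC4 had then received BMP4, FGF2 and VEGF up to day 4, and IEC12 had been kept in endothelial growth medium with added VEGF up to day 12. IEC12 were whole cultures that had not been sorted for CD31. AOC is an established porcine endothelial cell line. Values were FPKM, that is, fragments scaled to the length of the transcript and to all fragments of the library, so levels of different genes could be compared per length. The FPKM sum of a library lay between 335976.4 and 457193.7, and 8357 to 10467 genes reached an FPKM of 1.

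The endothelial label held in AOC and not in IEC4 or IEC12. PECAM1 (CD31) ranged from 91.7 to 131 FPKM in AOC, from 0.489 to 0.554 in IEC4 and from 0.0197 to 0.105 in IEC12. CDH5 (VE-cadherin) ranged from 103 to 137 FPKM in AOC and was listed at 0 in all 9 IEC libraries. The summed level of the 9 endothelial markers found of 12 lay between 263 and 383 FPKM in AOC. In the IEC libraries it was 5.70 at most (IEC2) and lay between 0.415 and 0.647 in IEC12. Values of IEC4 and IEC12 are therefore those of libraries labelled as such, in which an endothelial identity was not seen, and whether labels and cultures match was not tested. IEC4 replicate C stood apart in epithelial and amnion-type genes, with CLDN6 at 612 FPKM against 202 and 216 in replicates A and B, and KRT7 at 62.5 against 17.1 and 18.2. Of 8 pluripotency markers, NANOG and LIN28A were found. NANOG was at 1.07 FPKM or less in every library. LIN28A, an RNA-binding protein of stem cells, was listed at 0 in IEC2 and AOC, ranged from 3.01 to 5.86 FPKM in IEC4 and from 0 to 0.647 in IEC12, and so was highest at the stage at which APOA1 was highest among the IEC. Its part in the result for APOA1 was not tested.

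The 6 genes found lie on 5 chromosomes of the Sscrofa11.1 assembly, by RefSeq positions matched on the symbol. FOXA1 (ENSSSCG00000037634) is at chr7:62471233-62479638, GATA4 (ENSSSCG00000022383) at chr14:14858470-14938156 and HNF4A (ENSSSCG00000007371) at chr17:46783772-46847505. GATA6 (ENSSSCG00000003702), at chr6:107282709-107314725, and TTR (ENSSSCG00000023686), at chr6:115496338-115503974, are on the same chromosome but are not neighbours. APOA1 (ENSSSCG00000030921) is at chr9:44216481-44218360. Each value is for a whole gene and not for single exons or transcripts.

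Of the 2 transcription factors of the list that could be tested, FOXA1 changed during induction, and it rose late. Its FPKM was 0.426, 0.529 and 0.200 in IEC2 replicates A, B and C, 0.428, 0.856 and 0.223 in IEC4, 1.52, 2.25 and 2.14 in IEC12, and 0.454, 0.655 and 0.736 in AOC. All IEC12 libraries lay above every library of the other groups, while IEC2, IEC4 and AOC overlapped. The mean was 1.97 ± 0.396 (SD, n = 3) in IEC12, 0.615 ± 0.145 in AOC, 0.502 ± 0.323 in IEC4 and 0.385 ± 0.168 in IEC2. On the scale of log2(FPKM + 1), FOXA1 rose by 0.995 from IEC4 to IEC12 (standard error 0.21, limma adjusted p = 0.00409) and by 1.10 from IEC2 to IEC12 (standard error 0.21, limma adjusted p = 0.00219). It was lower in AOC than in IEC12, with a log2 difference of -0.87 (standard error 0.18, limma adjusted p = 0.00132). FOXA1 reached an FPKM of 1 only in the 3 IEC12 libraries, so it was tested only through the group where it was high. That fixed the direction of these differences beforehand. Without a filter they were still called (limma adjusted p = 0.00812, 0.00478 and 0.00252, in the same order). From IEC2 to IEC4 the log2 difference was 0.10 (95% interval -0.36 to 0.56, limma adjusted p = 0.721). The IEC12 mean of FOXA1 exceeded the IEC12 mean of 60.2% of all genes, so it was a gene of middling level even at its highest. In cultures of mixed cells, a larger share of cells that make a transcript and more of it in each cell cannot be told apart, here and for every gene below.

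GATA6 was present at a low level in all 12 libraries and did not pass the test in any comparison. Its FPKM was 0.613, 0.927 and 1.08 in IEC2 replicates A, B and C, 0.579, 0.810 and 2.02 in IEC4, 2.28, 1.65 and 1.52 in IEC12, and 1.56, 1.99 and 1.67 in AOC. The order of the means was IEC12, AOC, IEC4 and IEC2, at 1.82 ± 0.404, 1.74 ± 0.226, 1.14 ± 0.774 and 0.874 ± 0.239 (SD, n = 3). Neighbours in that order overlapped, although IEC12 and AOC each lay wholly above IEC2. The log2 difference was 0.59 from IEC2 to IEC12 (95% interval 0.02 to 1.15, limma adjusted p = 0.0879), 0.45 from IEC4 to IEC12 (95% interval -0.12 to 1.02, limma adjusted p = 0.175) and -0.03 for AOC against IEC12 (95% interval -0.53 to 0.46, limma adjusted p = 0.910). Replicate C of IEC4, the library with the high CLDN6 and KRT7, held the highest GATA6 of its stage. Without it, the difference from IEC4 to IEC12 was 0.73 (limma adjusted p = 0.0246). When IEC2 and IEC12 were fitted alone, their difference passed as well (limma adjusted p = 0.0397).

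GATA4 and HNF4A stayed at or next to 0. GATA4 was at 0.0469 FPKM in IEC2 replicate B and 0.0528 in IEC12 replicate B and was listed at 0 in the other 10 libraries, while GATA6 was measurable in every library. HNF4A was listed at 0 in all libraries of IEC2, IEC4 and AOC and stood at 0.0117, 0.00678 and 0.0376 FPKM in IEC12 replicates A, B and C. The IEC12 values of HNF4A did not overlap with those of the other groups, but the highest of them lay far below the 2.14 FPKM of FOXA1 in the same library. Neither gene reached the FPKM of 1 in 3 libraries that was required for a test, so both were tested only in the alternative without a filter.

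**Figure D1:**
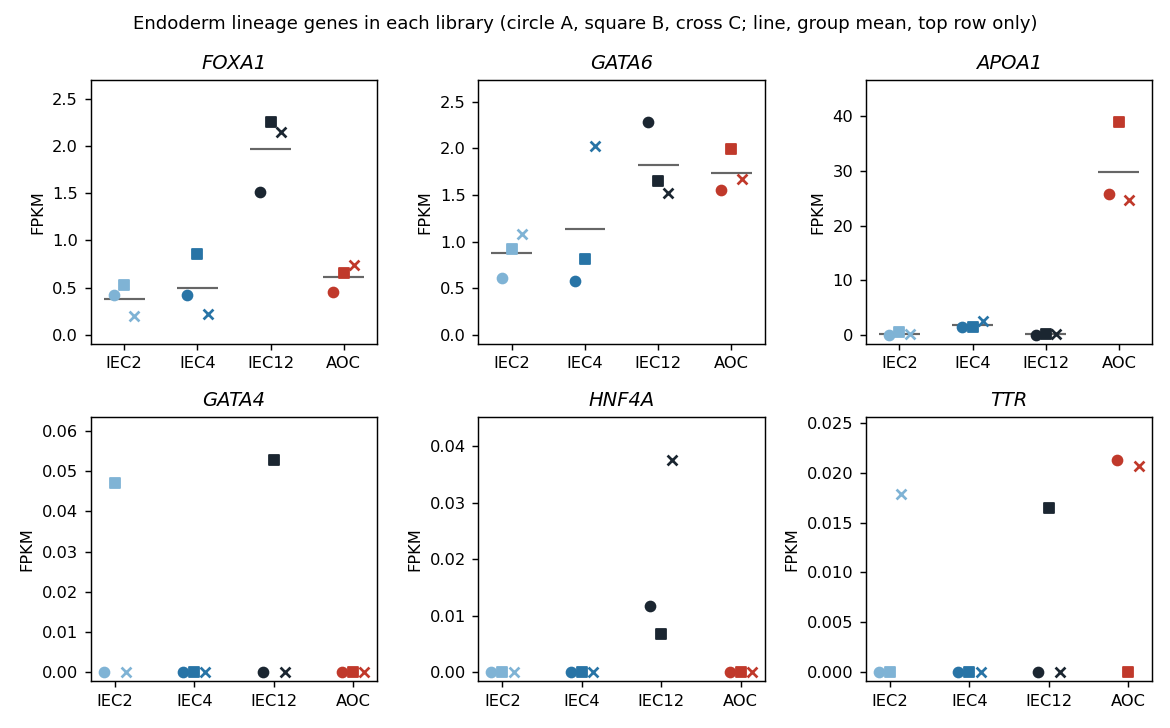
FPKM of the 6 endoderm lineage genes found in the files, on a linear axis of its own for each gene, with 1 point per library of IEC2, IEC4, IEC12 and AOC and, in the top row, a line at the mean of 3 replicates. FOXA1 is highest in IEC12 (1.52 to 2.25), GATA6 overlaps between neighbouring groups, APOA1 is highest in AOC (24.8 to 38.9), and GATA4, HNF4A and TTR stay under 0.06.

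APOA1 had the highest level of the 6 genes, and it was highest in the endothelial cell line. Its FPKM was 25.8, 38.9 and 24.8 in AOC replicates A, B and C. It was 0.0124, 0.485 and 0.103 in IEC2, 1.43, 1.40 and 2.56 in IEC4, and 0.0915, 0.190 and 0.164 in IEC12. Every IEC4 library lay above every library of IEC2 and IEC12, every AOC library lay above all of these, and IEC2 and IEC12 overlapped. The mean was 29.8 ± 7.89 in AOC, 1.80 ± 0.663 in IEC4, 0.200 ± 0.251 in IEC2 and 0.149 ± 0.0513 in IEC12 (SD, n = 3). On the log2(FPKM + 1) scale, APOA1 rose by 1.22 from IEC2 to IEC4 (standard error 0.21, limma adjusted p = 0.00191) and fell by 1.26 from IEC4 to IEC12 (standard error 0.21, limma adjusted p = 0.00145). Among the IEC libraries it reached an FPKM of 1 only in IEC4, the group where it was high, which fixed both directions beforehand. Without a filter both changes were still called (limma adjusted p = 0.00376 and 0.0032). Between IEC2 and IEC12 the log2 difference was -0.04 (95% interval -0.52 to 0.43, limma adjusted p = 0.881). APOA1 was higher in AOC than in IEC12 by 4.72 on that scale (standard error 0.23, limma adjusted p = 8.79e-09), and its AOC mean exceeded that of 90.0% of all genes. With a pseudocount of 0.1 in place of 1, these 3 differences grew to 2.95, -2.90 and 6.90, and those of FOXA1 to 1.90, 2.14 and -1.54, since the larger pseudocount holds down the change of low genes.

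TTR, the other secreted protein found, was at 0.0179 FPKM in IEC2 replicate C, 0.0165 in IEC12 replicate B and 0.0213 and 0.0206 in AOC replicates A and C, and it was listed at 0 in the other 8 libraries. TTR was therefore at or next to 0 in IEC4 and AOC, the groups in which APOA1 was highest. TTR reached an FPKM of 1 in no library, so it was tested only in the alternative without a filter, where it was not called.

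Of the 6 genes found, 3 were tested. FOXA1 reached the 3 libraries with an FPKM of 1 or more that a test needed through IEC12, where it was high, and APOA1 through IEC4 and AOC, where it was high, so their presence among the tested genes already depended on a difference. From IEC2 to IEC4, 1 of the 3 was called higher (APOA1) and 0 lower at an adjusted p under 0.05, where 24.8% of all 10542 tested genes were called higher and 12.5% lower. The count of 0 lower was also 0 at an unadjusted p under 0.05. From IEC4 to IEC12, 1 was called higher (FOXA1) and 1 lower (APOA1), against 17.3% and 26.9% of all genes. From IEC2 to IEC12, FOXA1 was called higher, against 24.2% of all genes called higher and 19.3% lower, and at an unadjusted p under 0.05 GATA6 was higher as well and 0 were lower. For AOC against IEC12, APOA1 was called higher and FOXA1 lower, against 22.4% and 36.2% of 11053 tested genes. Against shares of this size, counts of 1 or 2 among 3 genes were no result about the endoderm list as a group. The split of all calls depended on the scaling of the libraries. After median-of-ratios scaling it was 1867 higher and 1899 lower from IEC2 to IEC4 (2614 and 1318 as deposited), 2496 and 2283 from IEC4 to IEC12 (1825 and 2835 as deposited), and 3255 and 3117 for AOC against IEC12 (2472 and 3997 as deposited). With equal FPKM totals it was 1163 and 3381 from IEC4 to IEC12 and 1573 and 2732 from IEC2 to IEC12 (2556 and 2036 as deposited). By the stricter limits of the study's methods (p and adjusted p under 0.001, log2 fold change beyond 3), APOA1 passed in AOC against IEC12 and the other members passed nowhere. Those limits were met by 1.18% of tested genes from IEC2 to IEC4, 0.939% from IEC4 to IEC12, 1.22% from IEC2 to IEC12 and 4.41% for AOC against IEC12.

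Markers of other cell types moved along with the changes of APOA1 and FOXA1. In AOC, where APOA1 was highest, 7 of 7 tested endothelial markers were higher than in IEC12, where 22.4% of all tested genes were called higher. Of these 7, PECAM1, CDH5, TEK, NOS3, ERG and ESAM reached an FPKM of 1 only in the AOC libraries and so were tested only through the group where they were high, which fixed their direction beforehand. In IEC4, where APOA1 was next highest, 5 of the 7 tested trophoblast and amnion genes were higher than in IEC2 and 2 lower, against 24.8% and 12.5% of all tested genes. Of the 5, KRT7 and HAND1 would not have been tested without the IEC4 libraries, where they were high, which fixed their direction beforehand. The 10 genes of that list found had a summed level between 94.0 and 265 FPKM in IEC4, between 9.69 and 10.6 in IEC2, between 15.4 and 32.3 in IEC12 and between 3.37 and 4.03 in AOC, with CDX2 listed at 0 throughout. GABRP, a GABA receptor subunit of amnion, was at 64.6 to 184 FPKM in IEC4 and 2.67 to 4.38 in IEC2, and KRT7, a simple epithelial keratin, was at 17.1 to 62.5 and 0.197 to 0.526. IEC4 replicate C held the highest APOA1 of its stage beside the highest GABRP and KRT7. Without that replicate, and with the tested genes kept, APOA1 was still called in IEC4 against IEC2. In IEC12, where FOXA1 was highest, GATA3 of the trophoblast and amnion list stood at 7.66 to 15.6 FPKM, against 1.16 to 2.92 in IEC4 and 0.0258 to 0.0349 in IEC2. Of the 7 tested genes of that list, 2 were called higher in IEC12 than in IEC4 (GATA3 and ISL1) and 3 lower (KRT7, GABRP and HAND1), against 17.3% and 26.9% of all tested genes. GATA6 and GATA4 are also heart genes, and of the 13 cardiac and lateral mesoderm genes found, 7 stayed under an FPKM of 1 in every library. The summed level of that list lay between 23.9 and 28.6 FPKM in IEC2, between 32.7 and 66.6 in IEC4, between 17.8 and 25.2 in IEC12 and between 76.2 and 85.8 in AOC. The part of these other cell types in the levels of APOA1, FOXA1 and GATA6 was not tested.

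**Figure D2:**
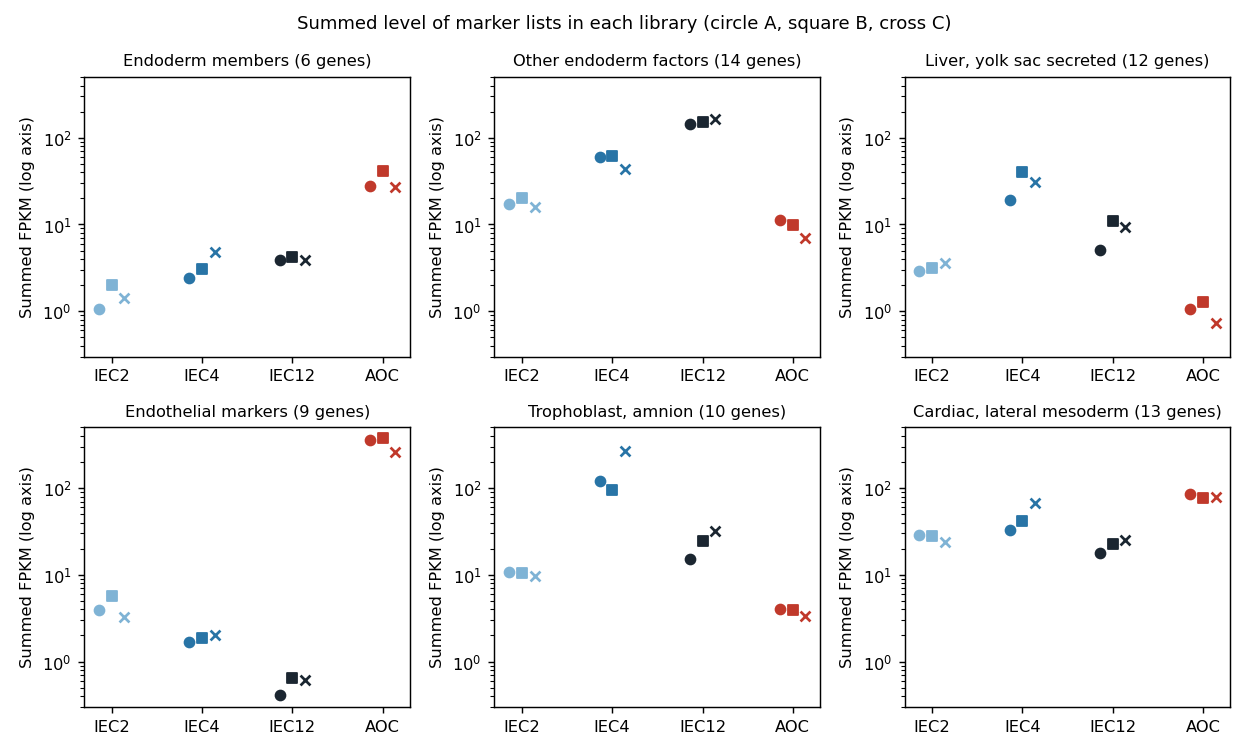
Summed FPKM (log axis) of 6 marker lists in each of the 12 libraries, with the number of genes found in each list in its title. The endothelial list lies between 263 and 383 in AOC and under 6 in all IEC libraries, the trophoblast and amnion list peaks in IEC4 with replicate C at 265, and the endoderm members are highest in AOC, where APOA1 makes up most of their sum.

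Companion endoderm genes were taken from 4 lists, which with the members held 66 genes, of which 49 were found. Of these 49, 27 stayed under an FPKM of 1 in all 12 libraries, and 15 of them under 0.1. The 14 genes tested in the IEC libraries had a median log2 difference of 0.56 from IEC2 to IEC4, where all tested genes had a median of 0.20. From IEC4 to IEC12 it was -0.34 against -0.15, from IEC2 to IEC12 0.44 against 0.03, and for AOC against IEC12 -0.39 (15 genes) against -0.21. From IEC2 to IEC4, 6 of the 14 were called higher and 0 lower, against 24.8% and 12.5% of all tested genes. From IEC4 to IEC12 these counts were 3 and 5, against 17.3% and 26.9%, and from IEC2 to IEC12 5 and 0, against 24.2% and 19.3%. For AOC against IEC12, 5 of the 15 were called higher and 6 lower, against 22.4% and 36.2%. Several of these shares lay near those over all genes, and some of the genes, such as LEFTY2 and VTN, were tested only through the group where they were high. For both counts of 0, the count at an unadjusted p under 0.05 was 0 as well. The 0 lower from IEC2 to IEC4 depended on the filter. With an FPKM of at least 0.1 in 3 libraries as the filter, FGB and CUBN were called lower in IEC4 than in IEC2. VIL1, PDZK1 and FGF17 were then called higher as well, VIL1 and FGF17 being tested only through IEC4.

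Among the 14 further transcription factors found of 17, endoderm factors were largely listed at or near 0. EOMES and MIXL1, which act in mesendoderm, and CDX2, of hindgut and trophoblast, were listed at 0 in all 12 libraries. A listed 0 does not by itself show that a transcript was missing. The study also measured MIXL1 by RT-qPCR, which is not compared here. FOXA3, ONECUT1, CEBPA and NR5A2 stayed under 0.2 FPKM. GSC, a mesendoderm factor, was at 0.437, 1.16 and 0.373 FPKM in IEC2, at no more than 0.371 in IEC4 and IEC12, and listed at 0 in AOC. The exception was OTX2, a factor of anterior endoderm that epiblast and forebrain also make. OTX2 was at 13.7, 14.4 and 11.3 FPKM in IEC2, 53.1, 54.6 and 37.5 in IEC4, and 140, 148 and 160 in IEC12, and was listed at 0 in AOC. It rose by 1.79 on the log2 scale from IEC2 to IEC4 (limma adjusted p = 5.26e-05) and by 1.62 from IEC4 to IEC12 (limma adjusted p = 0.000112). HHEX, made by anterior endoderm and by endothelial progenitors, ranged from 7.0 to 11.3 FPKM in AOC and from 2.19 to 5.14 in IEC12, a log2 difference of 1.15 (limma adjusted p = 0.00565). Its differences between IEC stages did not pass, with adjusted p from 0.229 to 0.539.

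Of the 12 further secreted proteins of liver and yolk sac found of 18, 3 were tested. APOE, an apolipoprotein that many tissues besides liver make, was at 0, 0.844 and 0.0734 FPKM in IEC2, 17.2, 34.9 and 27.3 in IEC4, 2.97, 8.14 and 5.46 in IEC12, and under 0.03 in AOC. APOE rose by 4.40 from IEC2 to IEC4 (limma adjusted p = 2.84e-05) and fell by 2.10 from IEC4 to IEC12 (limma adjusted p = 0.00177), so both apolipoproteins peaked in IEC4 among the IEC stages. In AOC they parted, APOA1 being at its highest and APOE near 0. VTN (vitronectin) reached 1.24 to 1.40 FPKM in IEC12 from 0.0671 to 0.498 in IEC4, a log2 difference of 0.82 (limma adjusted p = 0.00383). VTN was tested only because it reached an FPKM of 1 in the IEC12 libraries, the group where it was high. APOM passed in no comparison, with adjusted p from 0.184 to 0.525. FGB went the other way and was highest in IEC2, at 0.964, 1.05 and 0.875 FPKM. It was at 0.271 to 0.525 in IEC4, 0.152 to 0.200 in IEC12 and 0.0181 to 0.0546 in AOC. FGB was too low for the test, but was called lower in IEC4 than in IEC2 when the filter was an FPKM of at least 0.1 in 3 libraries. ALB (albumin) stayed under 0.2 FPKM in all libraries, APOB, TF and FGG stayed under 0.06, and APOH and AHSG were listed at 0 throughout.

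Of the 9 genes of uptake and epithelium in visceral endoderm found of 12, 2 of 3 tested (CLDN6 and DAB2) rose from IEC2 to IEC4, where 24.8% of all tested genes were called higher, and both serve other epithelia too. The third, MTTP, which loads lipid onto apolipoprotein B, was at 0.856, 0.905 and 1.29 FPKM in IEC2 and 0.656, 3.13 and 3.22 in IEC4, a log2 difference of 0.61 (limma adjusted p = 0.172). Without IEC4 replicate A that difference was 1.06 (limma adjusted p = 0.0048). CLDN6, a claudin of embryonic epithelia, was at 130, 86.9 and 97.1 FPKM in IEC2, 202, 216 and 612 in IEC4, 37.1, 67.4 and 70.5 in IEC12, and 2.16, 4.05 and 2.64 in AOC. It rose by 1.53 from IEC2 to IEC4 (limma adjusted p = 0.0159), a call that was lost without IEC2 replicate B (limma adjusted p = 0.055). DAB2, an endocytic adaptor, was at 31.6, 36.1 and 60.6 FPKM in IEC4 against 5.37 to 8.41 in IEC2, a rise of 2.37 (limma adjusted p = 9.33e-05), and it was at 25.7 to 27.1 in AOC. The receptor CUBN, which takes up proteins in visceral endoderm, was at 0.576, 0.360 and 1.23 FPKM in IEC2, 0.0566, 0.0570 and 0.182 in IEC4, at no more than 0.0334 in IEC12, and 0.669, 0.407 and 0.415 in AOC. VIL1, EPCAM and PDZK1, also too low for the test, had higher values in IEC4 than in IEC2. VIL1 (villin) was at 0.645 to 1.58 FPKM in IEC4 and at no more than 0.0310 in IEC2. EPCAM, an epithelial adhesion protein, was at 0.166, 0.208 and 2.21 in IEC4 replicates A, B and C and listed at 0 in IEC2. PDZK1, a scaffold of brush borders, was at 0.528 to 0.848 in IEC4 against 0.0409 to 0.324 in IEC2. LRP2, too low for the test as well, overlapped, at 0.0665 to 0.526 in IEC4 and 0.00951 to 0.0906 in IEC2. DPP4, a peptidase of epithelial brush borders, was at 2.29 to 4.45 FPKM in AOC and at no more than 0.307 in the IEC libraries.

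Among the signals and receptors of definitive endoderm, 8 of 10 listed were found and 3 were tested in the IEC libraries. The ligand NODAL stayed under 0.15 FPKM and CER1, a nodal and WNT antagonist of anterior endoderm, under 0.07. LEFTY2, a nodal antagonist that nodal signals induce, was at 8.08, 3.83 and 1.12 FPKM in IEC4 and under 0.14 in every library of the other groups. It rose by 2.13 from IEC2 to IEC4 (limma adjusted p = 0.00343) but reached an FPKM of 1 only in IEC4, so that it was tested through the group where it was high, and after median-of-ratios scaling it was no longer tested. FGF17, named after its values were seen, was at 2.81, 2.48 and 0.877 FPKM in IEC4 and listed at 0 in the other 9 libraries. CXCR4, a chemokine receptor of definitive endoderm and of endothelium, was at 56.1, 76.0 and 58.3 FPKM in AOC and at no more than 3.21 in any IEC library. It was higher in IEC12 than in IEC2 by 0.98 (limma adjusted p = 0.0122), and this was lost without IEC12 replicate B (limma adjusted p = 0.054). KIT, a receptor of endoderm and of blood progenitors, ranged from 26.1 to 89.8 FPKM over all libraries and passed in no comparison. For AOC against IEC12 its difference passed without AOC replicate B (-0.90, limma adjusted p = 0.0165) or without IEC12 replicate A (-0.86, limma adjusted p = 0.0197).

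**Figure D3:**
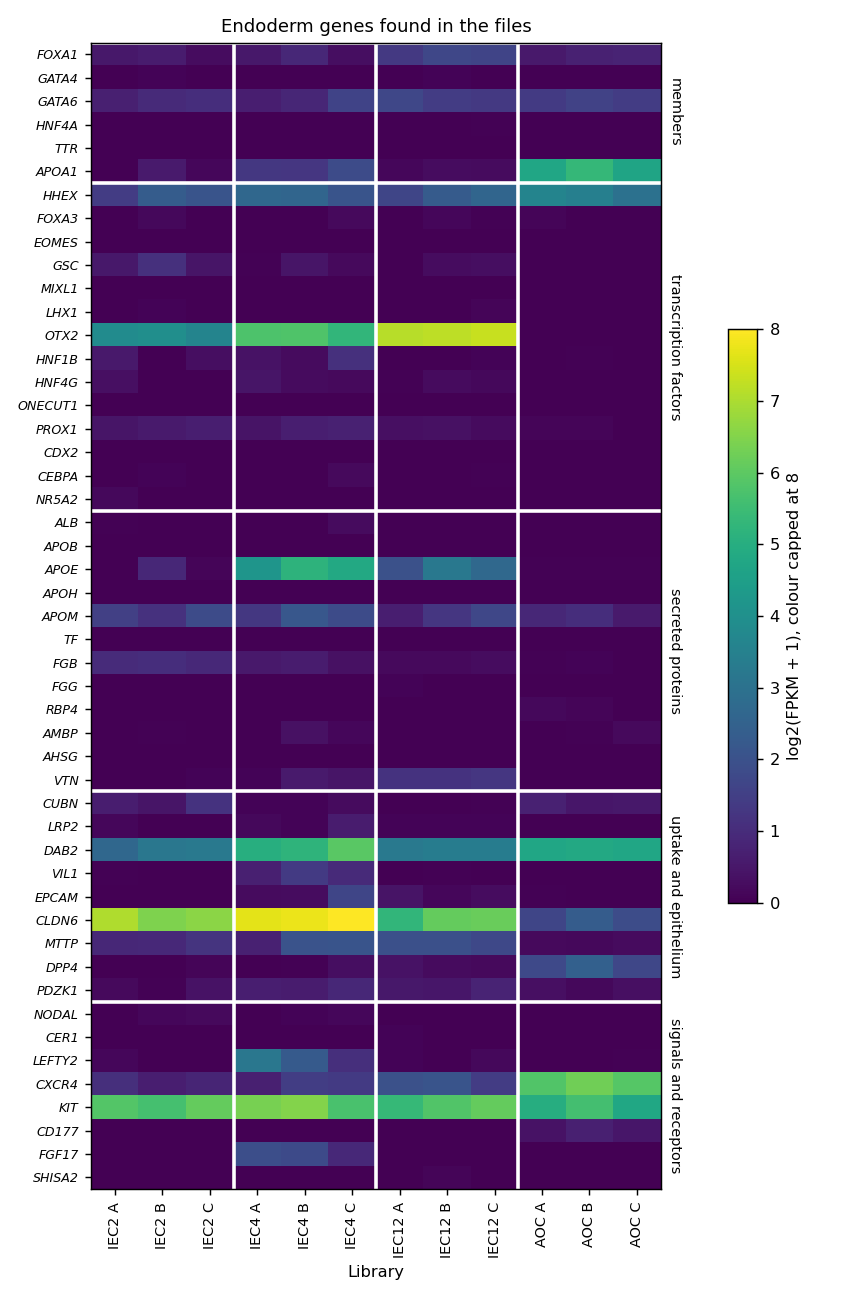
Level of the 49 endoderm genes found (rows, in 5 lists) in 12 libraries (columns), as log2(FPKM + 1) with the colour capped at 8. Most rows are dark throughout, 27 genes being under an FPKM of 1 in every library, while OTX2 and CLDN6 are bright in the IEC libraries, APOA1 and CXCR4 in AOC, DAB2 in IEC4 and AOC, and KIT in all.

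Values at or next to 0 were set beside genes that nearly all cells use. Of 146 genes for ribosomal proteins, mitochondrial ribosome proteins, proteasome subunits and RNA polymerase II subunits found by symbol, 0 stayed under an FPKM of 0.1 in all 12 libraries and 6 stayed under 1. ZPR1, a widely used gene 38.3 kb before APOA1 and its nearest neighbour with a value on that side, was nonetheless at 0.0126 FPKM or less in every library, so a value near 0 does not by itself show that a transcript was missing. On the other side, SIK3 lies 4.87 kb from APOA1 and was at 0.409 to 0.838 FPKM in IEC2, 2.31 to 2.96 in IEC4, 2.79 to 2.95 in IEC12 and 0.594 to 0.784 in AOC. It was thus higher in IEC4 than in IEC2, as APOA1 was, and lower in AOC than in IEC12, as APOA1 was not. Neighbours of the genes near 0 were mixed. TTPAL, 37.4 kb from HNF4A, was at 1.23 to 6.08 FPKM over all libraries, while R3HDML, 5.66 kb away on the other side, was listed at 0 in IEC2 and AOC and reached 0.568 at most. Beside TTR, DSG2 (42.6 kb) was at 7.60 to 30.4 FPKM in the IEC libraries and B4GALT6 (21.5 kb) at 2.60 to 18.8, but in AOC DSG2 was listed at 0 and B4GALT6 was at 0.0113 or less. Beside GATA4, NEIL2 (6.97 kb) was at 1.04 to 15.4 FPKM in the IEC libraries and at 0.0410 or less in AOC, whereas BLK (113 kb) was at 0.0206 or less in the IEC libraries and at 0.618 to 1.56 in AOC. MIPOL1, 37.5 kb from FOXA1, was at 15.4 to 18.3 FPKM in IEC12 against 5.18 to 12.3 in the other groups, so its highest group was that of FOXA1. TTC6, nearer to FOXA1 on the other side (26.7 kb), was at 0.0839 FPKM or less in every library.

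The genes whose pattern was most like that of each tested member were found by Pearson's r over the 12 libraries on log2(FPKM + 1), as a description, since libraries of a group share their culture conditions. For APOA1 these were PTGIS (r = 0.993), SERPINB8 (r = 0.992) and HERC6 (r = 0.992). PTGIS, which makes prostacyclin, was at 15.2 to 20.0 FPKM in AOC, 1.06 to 1.47 in IEC4, 0.00625 to 0.0763 in IEC12 and at 0 in IEC2, and thus shared the order of AOC before IEC4. For FOXA1 they were TRIM9 (r = 0.948), DYRK3 (r = 0.944) and BPNT1 (r = 0.944). TRIM9, a ubiquitin ligase of neurons, was at 1.496 to 2.63 FPKM in IEC12 and at no more than 0.242 elsewhere. For GATA6 they were SLC38A6 (r = 0.907), HTATSF1 (r = 0.901) and the mitochondrial gene ND4L (r = 0.900). By Spearman's rho, 0 of the 3 genes named for each member were among its nearest 3.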

How the data were processed

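Per the labels, cDNA was amplified by Smart-Seq2 before library preparation. The authors deposited 1 FPKM value per gene and library. Submitters' processing notes name Bowtie2 2.2.3, TopHat2 2.0.12, Cufflinks 2.2.1 and build susScr11. The annotation release, strand setting and number of reads are not given in the sources used here, so no counting error is given and precision rests on 3 replicates. Amplification and division by the fragment total tie each value to the other genes of its library.

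Symbols came from a gene name table that matched 13998 of 19681 identifiers. Differences were fitted with limma 3.58.1 (R 4.3.3) to log2(FPKM + 1) of genes whose FPKM was 1 or more in 3 or more libraries, with eBayes (trend = TRUE) and Benjamini-Hochberg adjustment over all tested genes. IEC stages were compared in the 9 IEC libraries and AOC in all 12. Calls needed an adjusted p under 0.05. Likeness and figures used Python 3.11.15, pandas 2.3.3, NumPy 2.4.6 and matplotlib 3.10.9. The fit was tested on simulated data.

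Members and lists were chosen with earlier results of these data known. One gene of the companion lists is not reported here. All members are named, with the 3 genes most like each tested member, and from each endoderm list the 3 highest genes and the gene with the largest called change. Neighbours, other cell types' markers, widely used genes, list genes at or near 0, FGB and FGF17 were named after values were seen. Alternatives were another pseudocount, other filters, a fit of 2 groups, the replicate letter as a block, other scaling, a variance not tied to expression, the study's limits and each replicate left out.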

Additional observations from a re-analysis of the deposited data

How the results depend on the processing

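The number of tested members called was 1 from IEC2 to IEC4, 2 from IEC4 to IEC12, 1 from IEC2 to IEC12 and 2 for AOC against IEC12. By the study's limits these were 0, 0, 0 and 1. With only IEC2 and IEC12 fitted, 2 members were called. With 1 replicate left out, the counts ranged from 0 to 1, from 1 to 2, from 0 to 1 and from 1 to 2, and each loss arose because FOXA1 or APOA1 no longer reached an FPKM of 1 in 3 libraries and was not tested. With the tested genes kept, an alternative chosen after seeing the data, no call of FOXA1 or APOA1 was lost, and adjusted p for these calls lay between 1.03e-09 and 0.0207 over all alternatives that tested them, apart from the study's limits. With the replicate block the counts were 1, 2, 1 and 2, the same members being called. Same-lettered libraries correlated in their deviations from group means at -0.514 to 0.247 across genes, so the letters were not taken as pairs. Scaling by median of ratios moved the median log2 difference of all genes from 0.20 to -0.01 from IEC2 to IEC4, from -0.15 to 0.04 from IEC4 to IEC12, and from -0.21 to -0.01 for AOC against IEC12. Equal totals moved it from 0.03 to -0.18 from IEC2 to IEC12. Without a filter, GATA4, HNF4A and TTR were tested and not called in any comparison (adjusted p from 0.256 to 1). Of the 3 genes most like each tested member, 0 were kept by Spearman's rho. Without counts of reads, an FPKM near 0 cannot be given a limit of detection.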
